A study of Caenorhabditis elegans with 15 samples.

Results

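The col genes of Caenorhabditis elegans, most of which encode cuticle collagens, were followed across 15 arrays of worms treated with a plant extract or a procyanidin fraction made from it. They were taken as every probe set whose gene symbol, in the platform annotation or after an update through its gene identifier, begins with col- and a number. This gave 156 of 29317 probe sets, which cover 157 genes. Of these, 153 stand for 1 gene and 3 for several near-identical genes. The last are a probe set for col-126 and col-127 and a pair for col-117, col-3 and col-125 with identical values on every array (col-125 also has a probe set of its own), so that the 156 members hold 155 distinct profiles. Copies of such genes can share probes, and their signals may not be separable.

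The nematode cuticle is built mainly from small collagens that the hypodermis secretes. Each larval stage makes a new cuticle before the molt, the collagen genes are switched on in waves within each molting cycle, and many are used in some stages and not in others. The cuticle of the adult is laid down at the end of the L4 stage, when the transcription factor LIN-29 turns on adult genes such as col-19. The chains carry Gly-X-Y repeats, are hydroxylated and trimmed, and are then cross-linked in the extracellular matrix.

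All worms were wild-type young adults (N2 Bristol, age-synchronous) kept for 6 h at 20 °C in M9 buffer, and RNA was taken from whole animals. The control received the solvent DMSO, which every treated group received too. Fraction H3, a mixture of oligomeric procyanidins from leaves of Combretum mucronatum, was given at 0.02, 0.2 and 2 mg/mL (H3 0.02, H3 0.2 and H3 2), and the crude hydro-ethanolic extract of the same leaves formed the group RE. The sample titles and the methods put RE at 0.2 mg/mL, whereas its treatment label reads 2 mg/mL, and 0.2 mg/mL was used here. There were 3 biological replicates per group, 15 arrays in all. Each value is the log2 expression value of a probe set after RMA. With so few arrays a group, their number and the spread among them limit the precision of each comparison.

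The arrays fell into 2 sets, called early and late after their running order in the study. The 8 early arrays were replicates 1 and 2 of the control, H3 0.02 and H3 2 and replicate 1 of H3 0.2 and RE. The 7 late arrays were replicate 3 of the control, H3 0.02 and H3 2 and replicates 2 and 3 of H3 0.2 and RE. The labels do not say what set them apart. The first principal component of all probe sets, with 52.02% of the variance, separated these sets, and with the members left out it still did so with 51.23%. In the 156 members alone the first component held 87.26%. H3 0.2 and RE had more late arrays than the control, so that any difference between the sets entered their comparisons with it. Adult markers were present throughout: the mean of 5 vitellogenin genes, which encode yolk proteins made by adults, lay between 9.96 and 11.4 on every array.

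Of the 156 members, 90 lay above the median of all probe sets on each of the 15 arrays, 115 did so on at least 3 arrays and 28 on none. That median was 3.54 to 3.65. Signal below that level may be background, so that a difference with 1 side below it is a minimum value and a difference with both sides below it has no bound. The number of members above the median was between 104 and 117 on the early arrays and between 95 and 100 on the late ones.

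The largest difference among the members ran between the sets of arrays and not between the treatments. Their median log2 difference, late minus early with the group means taken out, was −0.94, against −0.01 over all probe sets. In 77 of 156 members the late arrays were lower by a log2 difference of at least 1, against 5.67% of all probe sets, and in 47 they were lower by at least 2. On the late arrays, 4 of 156 members were higher by at least 1, a share near the 3.18% of all probe sets. Every late array lay below every early array for 78 members, against 7.54% of all probe sets, and above for 5, against 10.9%. Since the sets were defined with values of these arrays known, these differences are a description and were not tested. In whole-worm RNA, fewer cells of a type and less RNA per cell cannot be told apart.

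The difference was present in each group taken alone. The median of the members, late minus early, was −1.02 in the control, −1.11 in H3 0.02, −0.86 in H3 0.2, −0.80 in H3 2 and −1.02 in RE. The number of members lower by at least 1 was between 73 and 80 in the 5 groups. The plot of 3 classes of members by array shows the same split in every group.

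**Figure D1:**
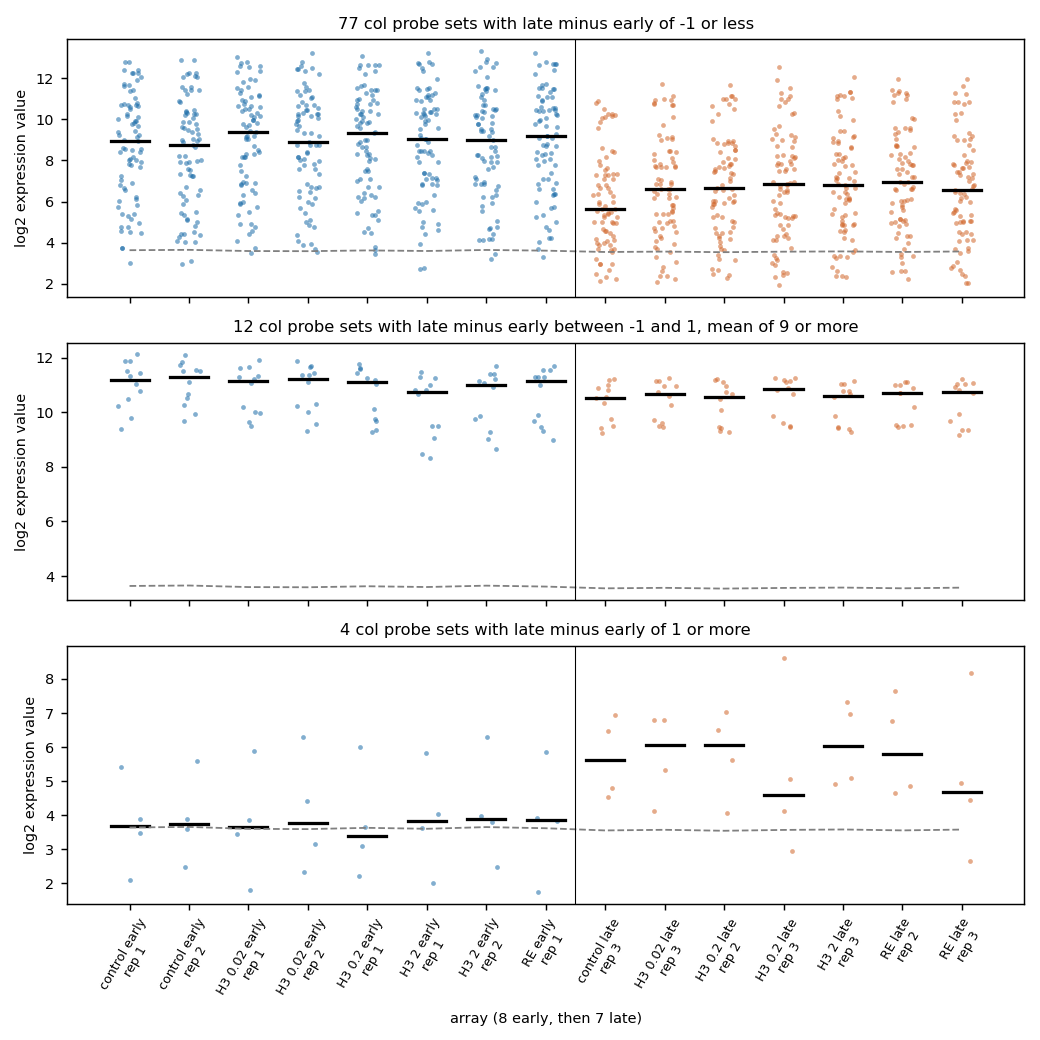
Log2 expression value of each member on each array, with 8 early arrays on the left and 7 late arrays on the right; black bars are medians of the class and the dashed line is the median of all probe sets on that array. The median of the 77 members in the upper panel lay between 8.74 and 9.39 on the early arrays and between 5.66 and 6.96 on the late ones, whereas that of the 12 members in the middle panel lay between 10.8 and 11.3 and between 10.5 and 10.9.

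The most negative differences of all members were those of col-63 and col-138, which depend on LIN-29 in L4 animals. For col-63 (ZK265.2) the early arrays lay at 8.95 to 9.98 with a median of 9.79, and the late arrays at 5.53 to 7.45 with a median of 6.86. For col-138 (C52D10.13) the ranges were 8.90 to 10.37 and 5.66 to 7.56. No late array reached the lowest early array for either gene, and control replicate 3 was the lowest array for both. The log2 differences were −3.03 and −3.02. col-88 and col-60 came next, with −2.88 and −2.85, followed by col-38 with −2.84, col-73 with −2.83, col-49 with −2.83 and col-130 with −2.81. Of these 6, col-38 and col-49 are also LIN-29-dependent collagens of the L4 stage. The other such gene on the list of fixed genes, col-175, is not among the 8 largest falls, and no value is given for it.

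Collagens known from earlier larvae were also lower. col-12 had a mean of 8.82 ± 0.45 (SD, n = 8) on early arrays and 6.21 ± 0.44 (SD, n = 7) on late arrays, and col-17 had 8.78 ± 0.33 and 6.20 ± 0.56. In both genes every late array lay below every early one. Of the dauer collagens, col-2 lay at 2.10 to 3.70 and col-40 at 1.92 to 2.86 on the 15 arrays. col-40 was never above the array median, and col-2 was so on 1 array. No value is given for col-6, the other dauer collagen on the list of fixed genes.

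The adult collagens differed among themselves. col-19, a standard marker of the adult hypodermis, lay at 10.83 to 11.51 on early and 10.77 to 11.25 on late arrays. The 2 ranges overlapped, and the difference was −0.33. col-7, which is also expressed in adults, lay at 11.08 to 11.48 and 10.03 to 10.29, with no overlap and a difference of −1.18. Its spread left after group and set was small, with an SD of 0.11.

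A class of 12 members had a mean of at least 9 and differed between the sets by less than 1. It held col-19, col-42, col-80, col-103, col-106, col-119, col-124, col-140, col-143, col-178, col-181 and col-184. Among the 38 members with a mean of at least 9, 26 were lower by at least 1 on late arrays and none was higher by that much. The 5 single-gene members with the highest means, col-94, col-81, col-125, col-92 and col-10, had differences of −1.37, −1.44, −1.81, −1.38 and −1.90. The 5 with the lowest means, col-180, col-55, col-51, col-47 and col-86, lay below the array median on every array. col-140 was one of the flattest, with 10.99 to 11.52 on early and 11.01 to 11.22 on late arrays.

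Collagens tied to lifespan, col-10, col-13 and col-120, whose overexpression is known to extend it, were all lower on the late arrays. col-120 had 9.82 to 10.59 on early and 7.03 to 7.96 on late arrays, col-13 had 10.02 to 10.66 and 6.67 to 8.35, and col-10 had 12.09 to 12.79 and 10.05 to 11.18. The sets did not overlap in any of them. Of the targets of the body-size ligand DBL-1, col-142 and col-41 stood on either side of the limit of 1, with −1.02 and −0.94, and col-141 had −0.68. The transmembrane collagen col-99 was slightly higher on late arrays, by 0.48, with overlapping ranges of 4.89 to 5.28 and 4.82 to 5.89. On the other side of the limit, col-80 came next with −0.95.

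**Figure D2:**
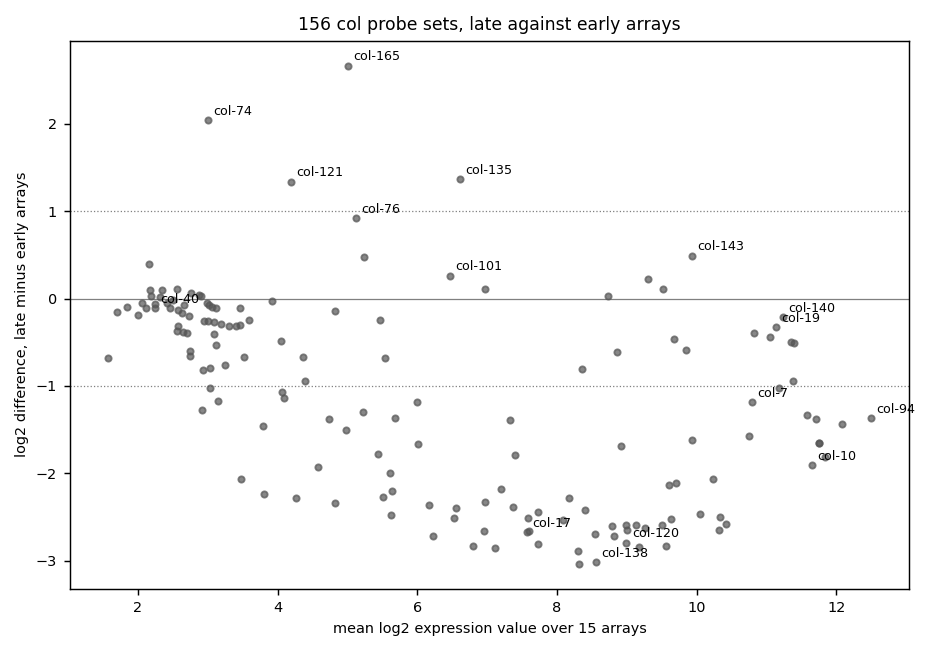
Log2 difference between late and early arrays (vertical axis, group means taken out) against the mean log2 expression value over 15 arrays (horizontal axis), with 1 point for each of 156 members; dotted lines mark differences of −1 and 1. The 41 members below the array median on 13 or more arrays lie between −1 and 1. Most others lie between −1 and −3.03, and col-165, col-74, col-135 and col-121 lie above 1.

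The 4 members that were higher on late arrays were col-165, col-74, col-135 and col-121. col-165 (F14H12.1) lay at 3.10 to 4.40 on early arrays, and on late arrays at 6.95 in the control, 6.81 in H3 0.02, 6.51 and 5.06 in H3 0.2, 6.96 in H3 2 and 6.76 and 4.94 in RE. Replicate 3 of H3 0.2 and replicate 3 of RE were thus the lowest of the late arrays, although still above every early array. The difference was 2.66. The same 2 arrays were lowest of the late ones for col-74, at 2.94 and 2.64 against 4.08 to 4.93 on the other 5, and for col-121, at 4.12 and 4.44 against 4.79 to 5.63. For col-135 they were highest, at 8.62 and 8.18 against 6.47 to 7.63. col-74 stayed below the array median on all early arrays and on these 2 late ones. One more member, col-76, also had no overlap, with 4.14 to 5.05 on early and 5.12 to 6.12 on late arrays.

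Neighbouring col genes often moved alike. In the RefSeq annotation of WBcel235, 41 of the 153 single-gene members form 24 pairs of adjacent protein-coding genes. The difference between the 2 genes of a pair in their late minus early value had a median of 0.42, against 1.16 over all pairs of members. Pairs within a run share genes. In some pairs both genes had means below the array medians, where a small difference tells little. Examples are col-9 and col-44 (means 2.57 and 3.01) and col-50 and col-51 (2.57 and 1.85). In 12 pairs both genes were lower by at least 1 on late arrays, in 4 neither was and in 8 only 1 was. The run col-167, col-168, col-169 and col-170 had differences of −2.51, −2.24, −2.34 and −2.28, whereas their neighbour col-171 had −0.14. The run col-144, col-145 and col-10 had −2.11, −2.46 and −1.90. By contrast, col-20 (0.03) lies between col-17 (−2.67) and col-73 (−2.83). Adjacent genes can be recent duplicates whose probes read each other's transcripts, and this was not tested.

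Other genes of the cuticle were set beside the members. Of 19 measured cuticle collagens with mutant names (bli, dpy, lon, rol and sqt), 12 were lower by at least 1 on late arrays, and their median was −2.0. The most negative was dpy-5 with −2.78, whereas dpy-14 and dpy-17, collagens of the body shape class, were higher by 4.42 and 4.36. Of 15 genes for collagen processing, 3 were lower by at least 1 and none higher (median −0.34), led by doxa-1 with −1.90 and dpy-18, a prolyl hydroxylase subunit that acts on collagen chains, with −1.58. For dpy-18 this fall was seen in the treated groups, whereas the late control array lay between the early ones. Of 34 cuticlins 4 were lower and 4 higher, and of 21 genes of molting 4 were lower and 2 higher. Of the cuticlins, 12 lay below the array median on every array, where a small difference tells little. None of the 9 genes of the DBL-1 pathway differed by 1 or more. None of these genes was called against the control without a term for the sets. With it, calls were higher only: at H3 0.02, H3 0.2, H3 2 and RE they were 0, 1, 0 and 0 of the named cuticle collagens, 1, 1, 1 and 1 of the processing genes, 1, 2, 1 and 2 of the cuticlins and 0, 0, 2 and 0 of the molting genes.

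Genes of other tissues also moved with the sets. Of 13 oocyte and germline genes, 8 were higher by at least 1 on late arrays and none lower, with a median of 1.18, and their mean level was 9.05 to 9.63 on early and 10.3 to 10.6 on late arrays. Of 5 measured sperm genes, 3 were lower, with a median of −1.13. Medians were −0.46 for 10 intestine genes and for 8 body wall muscle genes, −0.39 for 9 neuronal genes, −0.25 for 4 pharynx genes and 0.39 for the vitellogenins. Of the intestine genes, 3 were lower by at least 1 and 1 was higher. Of the muscle genes and of the vitellogenins, 1 each was lower and none higher by that much. No neuronal or pharynx gene differed so far. All genes of these 7 lists lay above the array median on at least some arrays. Their part in the difference of the collagens was not tested.

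Across the 15 arrays, the 77 members with lower late arrays followed one another closely. The median pairwise correlation was 0.93, and every pair was positive. After group and set had been taken out it was 0.37, with 77.5% of pairs positive. In the class of 12 members these medians were 0.78 and 0.68. The pairs share the same arrays and the set difference, and the values are given as a description.

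Each treatment was next compared with the control, to ask which collagens the fraction or the extract changed. A member was called when its limma adjusted p did not exceed 0.05 and its level differed by a factor of 2 or more. With 1 mean per group and no term for the sets, col-143 and col-101 were called lower at H3 2 and no member was called higher. No member was called at H3 0.02, H3 0.2 or RE. At H3 2, 0.901% of all probe sets were called lower, and the 2 calls were not shown to exceed that share. The methods' analysis of variance and a fit on only the 6 arrays compared each called 0 members at H3 2. All 4 comparisons share the control arrays.

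The counts are given with the share of all probe sets called in the same direction. At H3 0.02, 0 of 156 members were higher and 0 lower, where 0.304% and 0.321% of all probe sets were called, and the unadjusted p was under 0.05 for 3 higher and 0 lower members. At H3 0.2 the counts were 0 and 0 against 0.46% and 0.641%, with 1 higher and 4 lower at the unadjusted p. At H3 2 they were 0 and 2 against 0.665% and 0.901%, with 2 and 9. At RE they were 0 and 0 against 0.399% and 0.536%, with 0 and 5. Over all probe sets the shares at the unadjusted p were 3.39% and 3.79% at H3 0.02 and 5.17% and 5.41% at H3 0.2. These shares were 6.3% and 6.55% at H3 2 and 4.22% and 5.16% at RE. The set difference was part of the spread in this fit: for col-113 the SE of the log2 fold-change was 1.15.

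col-143 (T15B7.3) had the lowest log2 fold-change of all members at H3 2. It lay at 10.50, 10.53 and 10.33 in the control and at 8.46, 8.67 and 9.86 in H3 2, in the order of the replicates. The 2 groups did not overlap, and the early arrays of H3 2 stood furthest from the control. H3 0.02 had 9.96, 10.31 and 10.27, H3 0.2 had 9.77, 10.08 and 10.69, and RE had 9.45, 10.18 and 9.95. The log2 fold-change at H3 2 was −1.45 (SE 0.33, limma adjusted p = 0.0368). Within the early arrays it was −1.94 and within the late arrays, with 1 array per group, −0.47.

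col-101 (K02D7.3) showed the same order. Its values were 7.43, 7.28 and 6.69 in the control and 5.40, 5.73 and 6.33 in H3 2, again without overlap. In H3 0.02 they were 6.87, 6.59 and 6.64, in H3 0.2 6.05, 6.24 and 6.86 and in RE 5.76, 6.47 and 6.63. The log2 fold-change at H3 2 was −1.31 (SE 0.30, limma adjusted p = 0.0388), with −1.79 within early and −0.36 within late arrays. At the lower concentrations the values were −0.43 and −0.75, and that of RE was −0.85, with no call. Without replicate 1 or 2 of H3 2 or of the control, neither col-143 nor col-101 was called. col-143 was not called without control replicate 3 either (log2 fold-change −1.51, limma adjusted p = 0.0605). The test of treatment against set in 1 model found no member at an adjusted p of at most 0.05 in any of the 4 comparisons, and at H3 2 the unadjusted p was under 0.05 for 26 of 156 members, against 5.99% of all probe sets.

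Some members passed the adjusted p at H3 2 with a smaller change. col-20 lay at 9.10, 9.16 and 8.82 in the control and 8.03, 8.52 and 8.51 in H3 2. The groups did not overlap, and the log2 fold-change was −0.67 (SE 0.15, limma adjusted p = 0.0282), below a fold-change of 2. All 12 members of the class with flat, high values had negative values at H3 2, with a median of −0.43, against 0.02 over all probe sets. For col-103 the control arrays were above every treated array within each set, at 10.79 and 10.68 against 9.50 to 10.25 on early arrays and 9.75 against 9.16 to 9.73 on late arrays. Its log2 fold-changes without the set term were −0.34, −0.74 and −0.85 in order of the concentration of H3 and −0.87 for RE, without a call.

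**Figure D3:**
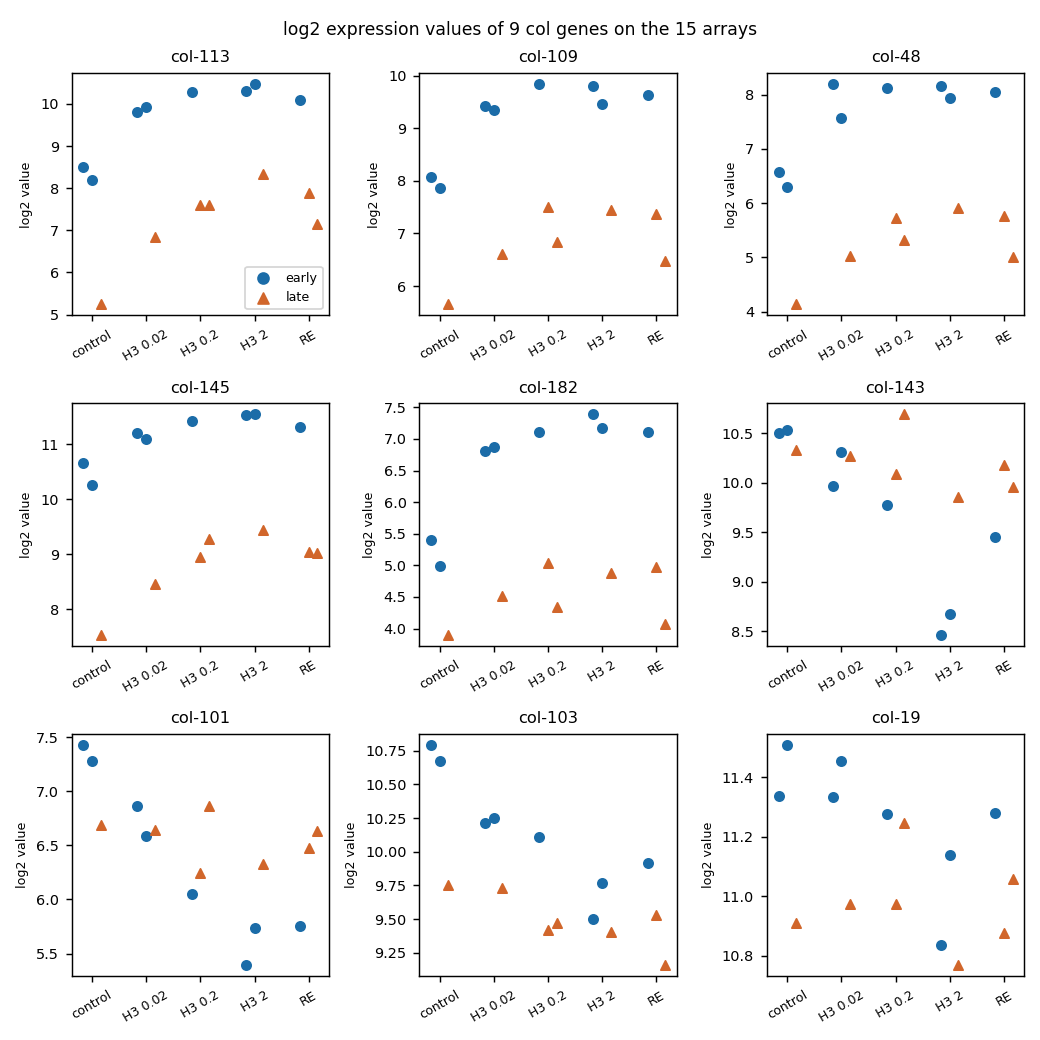
Log2 expression values of 9 members on each of 15 arrays, by group, with early arrays as circles and late arrays as triangles; the vertical axes differ between panels. The control arrays of col-113, col-109, col-48, col-145 and col-182 are the lowest of their set, those of col-143, col-101 and col-103 lie at or near the top of theirs, and col-19 shows overlapping groups.

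A fit with the set as a term was run because the sets spread the members so widely. H3 0.02 and H3 2 are divided over the sets as the control is, and their estimates stay as they were, whereas those of H3 0.2 and RE change. With it, 6 members were higher at H3 0.02 and 0 lower, against 0.767% and 0.624% of all probe sets. At H3 0.2 there were 14 higher and 0 lower, against 1.19% and 1.03%. At H3 2 there were 14 higher and 2 lower, against 1.48% and 1.62%. At RE there were 16 higher and 0 lower, against 1.08% and 0.986%. These calls depended largely on the set term. None of the higher members was called with group means alone, and 3 were called at H3 2 with the replicate number as a term. The calls with the set term also rested on single arrays. At H3 0.02 the number of called members was 3 without replicate 1 of that group and 9 without control replicate 1. At RE it was 9 without RE replicate 1, RE replicate 2 or control replicate 2.

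Over all 156 members the median log2 fold-change in this fit was 0.16, 0.18, 0.09 and 0.17 at H3 0.02, H3 0.2, H3 2 and RE, against 0.00, 0.02, 0.02 and 0.01 over all probe sets. In the 77 members that were lower on late arrays it was 0.40, 0.55, 0.46 and 0.56. Every higher member belonged to those 77. Within the early arrays alone their medians were 0.30, 0.34, 0.22 and 0.34, and within the late arrays 0.60, 0.73, 0.76 and 0.81. Lists of other tissues also had medians away from 0 in this fit. At H3 0.02, H3 0.2, H3 2 and RE the median was 0.19, 0.20, 0.23 and 0.24 for the muscle genes, 0.17, 0.16, 0.16 and 0.18 for the neuronal genes and −0.12, −0.25, −0.56 and −0.30 for the vitellogenins. For the oocyte and germline genes it was −0.18, −0.16, −0.27 and −0.14, and their part in the values of the collagens was not tested. The late values of the 77 members rest on 1 control array, replicate 3, which had the lowest median over the members (4.63, against 5.00 to 5.27 on the other late arrays). On the first component without the members it lay at 69.5, against 33.9 to 58.0 on the other late arrays. Control replicate 2 lay at −36.6 and control replicate 1 at −44.5, against −50.3 to −44.3 on the treated early arrays. The set term is 1 shift per set and leaves such differences within a set in place. Their part in the calls was not tested.

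col-113 (C34D4.15) had the smallest adjusted p in all 4 comparisons. On early arrays it lay at 8.50 and 8.20 in the control, 9.81 and 9.92 in H3 0.02, 10.29 in H3 0.2, 10.31 and 10.47 in H3 2 and 10.08 in RE. On late arrays it lay at 5.24 in the control, 6.84 in H3 0.02, 7.61 and 7.60 in H3 0.2, 8.33 in H3 2 and 7.89 and 7.15 in RE. Within each set every treated array lay above every control array. With the set as a term the log2 fold-change was 1.54 at H3 0.02 (SE 0.22, limma adjusted p = 0.00148), 2.08 at H3 0.2 (SE 0.23, adjusted p = 0.000128), 2.39 at H3 2 (SE 0.22, adjusted p = 2.4e-05) and 1.96 at RE (SE 0.23, adjusted p = 0.000212). Without the term the values were 1.54, 1.19, 2.39 and 1.06, with limma adjusted p of 0.998, 0.846, 0.423 and 0.93.

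The other members called at H3 0.02 were col-48, col-109, col-138, col-167 and col-182. They were also called at H3 0.2, H3 2 and RE, which share the control. col-109 (Y38C1BA.3) lay at 8.08 and 7.87 in the early control and 9.35 to 9.84 on the other early arrays, and at 5.65 in the late control and 6.47 to 7.50 on the other late arrays. Its log2 fold-changes were 1.27, 1.70, 1.70 and 1.47 at H3 0.02, H3 0.2, H3 2 and RE. For col-48 (Y54E10BL.2) the early controls were at 6.57 and 6.30 and the treated arrays at 7.58 to 8.19, and the late control was at 4.13 and the treated arrays at 5.00 to 5.91. Neither gene had a treated array as low as the control of its set. The values of col-48 were 1.26, 1.56, 1.67 and 1.44.

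The L4 collagen col-138, with one of the largest set differences, had 9.22 and 8.90 in the early control against 9.77 to 10.37 on treated early arrays, and 5.66 in the late control against 6.85 to 7.56. Its log2 fold-changes with the set term were 1.09, 1.49, 1.25 and 1.35. col-167 and col-182 had 1.32 and 1.30 at H3 0.02, and 1.22 and 1.72 at H3 2. For col-182 (R09A8.4) the differences at H3 2 were 2.09 within early and 0.98 within late arrays, and for col-113 they were 2.04 and 3.09. The other L4 collagen called, col-63, was called at RE (1.04, limma adjusted p = 0.0408). Its values of 0.99 at H3 0.2 (adjusted p = 0.0436, limma), 0.88 at H3 0.02 and 0.87 at H3 2 lay just under the fold-change limit.

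**Figure D4:**
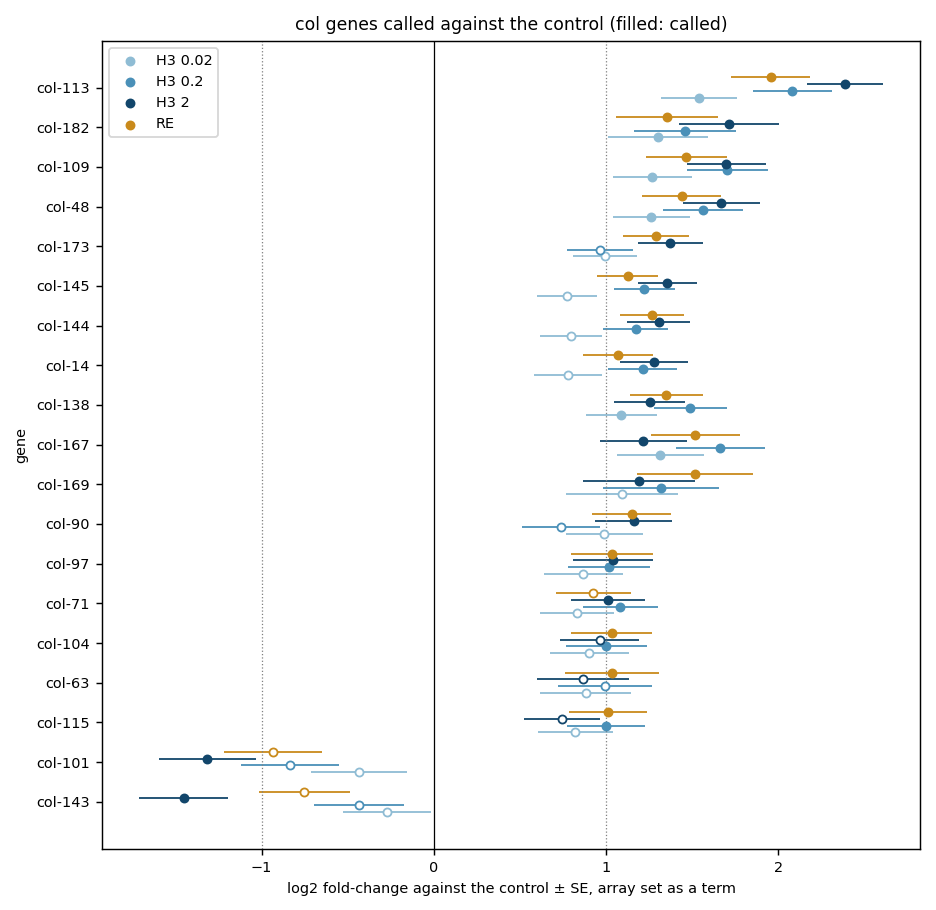
Log2 fold-change against the control (horizontal axis, ± SE, fit with the array set as a term) of the 19 members called in at least 1 comparison, with 1 colour for each treatment, filled points for called values and open points for others. col-113 has the largest values, from 1.54 to 2.39, and col-101 and col-143 are the only members below 0.

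The remaining higher members were col-14, col-71, col-97, col-104, col-115, col-144, col-145 and col-169 at H3 0.2, of which col-104 and col-115 were not called at H3 2 and col-71 not at RE. col-90 and col-173 were called at H3 2 and RE. Among the higher calls the log2 fold-change was 1.00 to 2.08 at H3 0.2, 1.01 to 2.39 at H3 2 and 1.01 to 1.96 at RE. col-144 and col-145, neighbours on the chromosome, had 1.17 and 1.22 at H3 0.2, 1.31 and 1.36 at H3 2 and 1.27 and 1.13 at RE. For col-169 the late control lay at 2.97, below the array median.

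The direction was the same in both sets for each called member of each comparison: 6 of 6 at H3 0.02, 14 of 14 at H3 0.2, 16 of 16 at H3 2 and 16 of 16 at RE. The calls came from these same arrays, so this agreement follows largely from the choice of members and is no separate evidence. Across all 156 members, the control arrays lay below every treated array within both sets for 34, against 5.45% of all probe sets, and above for 3, col-103, col-106 and col-179, against 6.65%. The 34 include all 17 higher members, which were themselves chosen from these arrays. On the early arrays alone the control was lowest for 45 members (28.8%, against 11.2% of all probe sets), and on the late arrays alone for 71 (45.5%, against 19%).

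**Figure D5:**
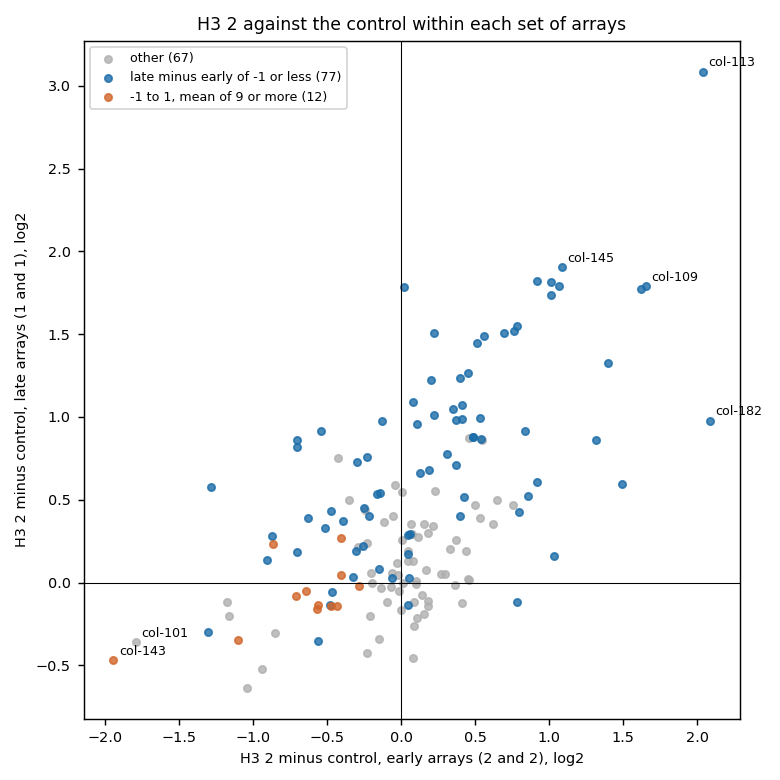
Log2 difference of H3 2 minus control within the early arrays (horizontal axis, 2 arrays per group) against that within the late arrays (vertical axis, 1 array per group), with 1 point for each of 156 members and colours for 3 classes. col-113 stands highest on the late arrays with 3.09, col-182 furthest to the right with 2.09, and col-143 and col-101 furthest to the left with −1.94 and −1.79.

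The replicate number as a term gave fewer calls than the set. Same-numbered arrays deviated together among the control, H3 0.02 and H3 2, with residual correlations of 0.48 to 0.80 between the control and H3 0.02 and 0.50 to 0.77 between the control and H3 2. Only group means were taken out of these residuals, so they still hold the set difference. As numbers and sets coincide in these groups, the correlations cannot tell a pairing by number from the set. For replicate 2 of the control and of H3 0.2, which belong to different sets, the correlation was −0.59. At H3 2 this fit called 3 members higher (col-109, col-113 and col-182, with limma adjusted p of 0.0476, 0.0343 and 0.0392) and col-143 and col-101 lower (0.0102 and 0.0273), against 1.07% and 1.26% of all probe sets. At H3 0.02 it called 0 and 0 members, against 0.46% and 0.42%, and the smallest limma adjusted p was 0.24, for col-182. At H3 0.2 it called col-135 higher and col-41 lower, against 0.641% and 1.02%, and at RE col-135 higher and none lower, against 0.539% and 0.948%. In these 2 groups replicate 2 belongs to the late set, whereas control replicate 2 belongs to the early one.

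The fixed genes with a known role outside the L4 group were mostly without a call. col-19 had log2 fold-changes of 0.00, 0.02, −0.34 and −0.07 at H3 0.02, H3 0.2, H3 2 and RE with the set term, and col-7 had −0.04, 0.07, −0.20 and 0.02. The lifespan-linked col-10 reached 0.69 at H3 2 (SE 0.19, limma adjusted p = 0.0331), which is under a fold-change of 2. The L4 collagens col-38 and col-49 had 0.09 and 0.86 at H3 2, the latter with a limma adjusted p of 0.0219 and also under the fold-change limit. dpy-18, which acts on the collagen chains and is no member, was called higher with the set term in all 4 comparisons, by 1.70, 1.74, 2.02 and 1.56, and in none without it. It lay at 8.01 and 7.36 in the early control against 9.86 to 10.50 on treated early arrays, and at 7.39 in the late control against 7.76 to 8.30. The treated arrays thus stood further above the control on the early arrays, and by less than 1 on the late ones. It was 1 of 15 genes for collagen processing, and the other 14 had no call in this fit. None of col-2, col-12, col-13, col-17, col-40, col-41, col-99, col-120, col-141 and col-142 was called with the set term.

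The concentrations of H3 were compared with one another, and RE with H3 at the concentration the titles give as equal. No member was called in any of these 4 comparisons. For H3 2 against H3 0.02, 0.0307% of all probe sets were higher and 0.00682% lower without the set term, 0.0716% and 0.058% with it, and 0.0341% and 0.00682% with the replicate number as a term. For H3 0.2 against H3 0.02, 0.00682% were higher with the set term and 0.00682% with the replicate number. For H3 2 against H3 0.2 these shares were 0.00682% and 0.0136%, and all other shares were 0%. Without the term the unadjusted p was under 0.05 for 0 higher and 1 lower members between H3 0.2 and H3 0.02, for 0 and 3 between H3 2 and H3 0.2, for 3 and 4 between H3 2 and H3 0.02 and for 1 and 0 between RE and H3 0.2. Over all probe sets these shares were 1.76% and 1.04%, 2.01% and 2.14%, 2.35% and 2.05% and 0.897% and 1.33%, in the same order. With the set term the counts of members were 3 and 2, 2 and 11, 7 and 18 and 1 and 1. The shares of all probe sets with such a p were then 3.17% and 2.35%, 3.1% and 3.57%, 4.36% and 4.43% and 1.75% and 2.31%. With the set term, col-113 was higher in H3 2 than in H3 0.02 by 0.85 (95% interval 0.37 to 1.33, limma adjusted p = 0.223), and col-143 was lower by 1.18 on the log2 scale. Between H3 2 and H3 0.2 the differences were 0.31 (−0.19 to 0.80) for col-113 and −1.02 (−1.59 to −0.45, limma adjusted p = 0.471) for col-143.

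Between RE and H3 0.2, no single-gene member differed by 1 or more. The values ran from −0.38 for col-95 to 0.68 for col-41, and the smallest limma adjusted p was 1. col-113 differed by −0.13 (95% interval −0.61 to 0.35) and col-143 by −0.32 (−0.87 to 0.24). The intervals include both signs, and a p above the limit does not show that the extract and the fraction act alike.

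A few members stood apart on single arrays. H3 0.02 replicate 1 exceeded all other arrays by at least 1 for 4 members, or 2.56%, against 0.0546% of all probe sets. For col-36 it lay at 5.62 where the other 14 arrays lay at 3.04 to 3.79, for col-43 at 5.03 against 2.51 to 3.28, for col-102 at 4.75 against 2.62 to 3.08 and for col-37 at 4.31 against 2.64 to 3.06. The other 2 arrays of H3 0.02 lay within these ranges. The dauer collagen col-2 was also highest there, at 3.70. Control replicate 1 exceeded all others by at least 1 for col-176 (6.90, next 5.55), and control replicate 3 lay below all others by at least 1 for 5 members. The largest SD left after group and set was that of col-36, with 0.67, against a median of 0.26 over the members.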

How the data were processed

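Arrays were Affymetrix C. elegans Gene 1.0 ST arrays. The deposited values are log2 expression values, which the authors obtained with RMA and quantile normalisation in Partek Genomics Suite after a check in Affymetrix Expression Console; the sources used here give neither versions nor a genome build. They were used as deposited, with 3 arrays per group and every one of the 29317 probe sets tested. The early and late sets follow the running number of the arrays in the study's supplement. Genes were named through the platform annotation and RefSeq WBcel235. Tools were R 4.3.3, limma 3.58.1 and the data.table package (version 1.17.8), and Python 3.11.15, pandas 2.3.3 and matplotlib 3.10.9.

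A mean for each group was fitted with lmFit and moderated with eBayes, and p-values were adjusted by Benjamini-Hochberg over all probe sets within each comparison. Members were called where the adjusted p was 0.05 or less and the log2 fold-change was 1 or more in size. The array set or the replicate number as a term, the methods' analysis of variance, an intensity trend, only the 6 arrays compared, a filter (above the array median on at least 3 arrays) and leaving out each array were alternatives. The tests were checked on simulated data. Same-numbered arrays deviate together between H3 0.2 and RE and among the other 3 groups. There the residual correlation was over 0.1 for every pair, and numbers and sets coincide. In the other comparisons replicate 2 joins different sets. The residuals keep the set difference, so they do not show a pairing by number apart from the set.

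The members, the sets and the gene lists were chosen with earlier results of these data known. Genes are named by a rule: per comparison with the control the up to 10 called members with the smallest adjusted p, those called in all 4 or between treatments, the 8 largest falls and rises between the sets, up to 8 members with every late array above every early one, the 5 members with the highest and lowest means and the 5 with the largest residual spread, and fixed genes with known stage or pathway. Of the fixed genes, col-6 and col-175 are given without values. The other genes of each list follow the size of their difference. Remaining names were chosen after their values were seen.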

Additional observations from a re-analysis of the deposited data

How the results depend on the processing

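Calls against the control depended on the treatment of the array sets. With the set as a block the number of called members rose from 0 to 6 at H3 0.02, from 0 to 14 at H3 0.2, from 2 to 16 at H3 2 and from 0 to 16 at RE. These numbers were 6, 14, 16 and 16 when dim probe sets were also filtered out, and 6, 15, 16 and 19 without replicate 3 of H3 0.2 and of RE, 2 settings chosen after seeing the data. The replicate block gave 0, 2, 5 and 1, where the calls at H3 0.2 were col-135 higher and col-41 lower and that at RE was col-135 higher; it called none between treatments. At H3 2, the methods' analysis of variance gave 0 and only the 6 arrays compared gave 0. The intensity trend and the filter kept the number at 2, and at H3 0.02, H3 0.2 and RE these 4 settings gave 0.

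Leaving out 1 array gave 0 to 0 calls at H3 0.02, 0 to 1 at H3 0.2, 0 to 5 at H3 2 and 0 to 2 at RE. At H3 0.2, H3 2 and RE the highest value came without control replicate 3, the control's only late array, and at H3 2 the number was 0 without replicate 1 or 2 of H3 2 or of the control. With the set as a block the ranges were 3 to 9, 10 to 18, 13 to 20 and 9 to 19. The lowest values came without H3 0.02 replicate 1 (3), H3 0.2 replicate 1 or control replicate 2 (10), control replicate 2 (13) and any of RE replicate 1, RE replicate 2 or control replicate 2 (9). At H3 0.02, 9 came without control replicate 1, 4 without control replicate 2, 5 without H3 0.02 replicate 2 and 7 without replicate 3 of either group. At H3 0.2, 12 came without H3 0.2 replicate 2 or control replicate 3, and 15 without H3 0.2 replicate 3. At H3 2, 17 came without control replicate 1 or H3 2 replicate 2, 15 without H3 2 replicate 1 and 14 without H3 2 replicate 3. At RE, 17 came without control replicate 1 and 12 without control replicate 3. Between treatments 1 call appeared, for H3 2 against H3 0.02 without H3 2 replicate 3 (0 to 1). The median difference between the sets was −0.99 to −0.87 with 1 array left out, −1.11 within H3 0.02, −0.80 within H3 2 and −1.62 with dim members filtered out. For 52 pairs of a called single-gene member and a comparison with the control, 416 alternative values were computed. Of these, 241 kept the call and none reversed direction. The members were chosen for a log2 fold-change of at least 1 in these data, so a reversal was unlikely from the start. At H3 0.02 and H3 2 the set and replicate terms leave the estimate as it was. The number of arrays limits all of these values.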
